A study of Mus musculus with 6 samples.

Results

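The genes described here lie on mouse chromosome 4 around the Skint genes. They were chosen by position: every non-control probe whose mm9 start lies between 111000000 and 119000000, leaving out the probes of the Skint genes and of 1 other gene. This window holds 239 probes with 156 names, out of 56605 probes with 37008 names on the array. The window was drawn after the Skint genes and the long noncoding RNA gene D4Ertd617e had been seen to be lower in the labelled knockout tumours. Genotype differences of the members come from that same contrast, so they are given as a description, without a test, and the counts called support nothing. What follows describes which other genes of the region differed between the genotypes, by how much, and where along the chromosome they lie.

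RNA was measured in 6 skin tumours of male mice, 3 labelled P2ry6+/+ and 3 labelled P2ry6-/-. P2ry6 is the gene of a membrane receptor that responds to the nucleotide UDP. All tumours were raised on shaved dorsal skin with 1 dose of 195 nmol of the mutagen DMBA and repeated doses of 16 nmol of the tumour promoter TPA until week 22, in 12 mice of each genotype. The labels used here name no strain, age or targeting design, and they do not say whether each tumour came from its own mouse. The tumours of a genotype may therefore not be independent, and their spread may understate that between mice. The spread may also be partly technical. The P2ry6 signal was not lower in the labelled knockout tumours (0.57 ± 0.13 against 0.17 ± 0.33, SD, n = 3, on the log2 scale below), and it is not stated which part of the gene was removed. Genotypes are therefore called labelled wild-type and labelled knockout.

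Skint genes encode immunoglobulin-like membrane proteins of keratinocytes and thymic epithelium, and Skint1 is known for its role in selecting the gamma-delta T cells of mouse epidermis. The genes around them have no common function. They include the Tal1 and Stil genes, a Cyp4 cluster of fatty-acid hydroxylases, a run of housekeeping genes of metabolism, RNA handling and DNA repair, and a set of olfactory receptor genes, which serve odour detection in the nose.

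The results turn on D4Ertd617e, so its array probe and the starts of its gene and of the neighbouring genes Ebna1bp2 and Cfap57 are shown. The probe lies at chr4:118304405-118304464 on the plus strand (mm9), in a gene that RefSeq lists as a long noncoding RNA. The promoter sequences are those of RefSeq (GRCm38.p6, whose coordinates are not those of mm9) and run from 250 bases before to 50 bases after the start. Capitals mark the motifs CCAAT and GGGCGG on either strand, so ATTGG and CCGCCC are marked too; matches of different motifs can share bases, which none of those marked here do.
D4Ertd617e probe: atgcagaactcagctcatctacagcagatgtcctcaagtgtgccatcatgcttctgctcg
D4Ertd617e promoter, chr4:118626154-118626453, plus strand: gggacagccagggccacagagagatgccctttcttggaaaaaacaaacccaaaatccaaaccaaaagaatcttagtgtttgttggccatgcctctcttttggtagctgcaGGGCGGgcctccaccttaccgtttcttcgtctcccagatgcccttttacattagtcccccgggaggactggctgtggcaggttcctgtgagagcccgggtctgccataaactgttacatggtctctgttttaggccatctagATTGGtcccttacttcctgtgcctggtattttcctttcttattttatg
Ebna1bp2 promoter, chr4:118620549-118620848, plus strand: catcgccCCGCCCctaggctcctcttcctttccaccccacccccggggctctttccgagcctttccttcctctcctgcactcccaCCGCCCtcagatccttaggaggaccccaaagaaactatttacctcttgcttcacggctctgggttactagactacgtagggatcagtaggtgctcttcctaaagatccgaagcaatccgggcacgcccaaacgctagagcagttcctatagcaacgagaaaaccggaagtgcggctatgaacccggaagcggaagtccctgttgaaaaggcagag
Cfap57 promoter, chr4:118620736-118621035, minus strand: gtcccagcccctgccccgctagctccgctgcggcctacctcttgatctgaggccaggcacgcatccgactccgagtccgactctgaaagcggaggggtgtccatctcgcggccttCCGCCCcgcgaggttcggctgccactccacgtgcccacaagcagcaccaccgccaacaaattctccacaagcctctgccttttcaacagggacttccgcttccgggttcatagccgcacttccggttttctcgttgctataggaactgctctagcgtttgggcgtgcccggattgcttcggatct
The D4Ertd617e window had 49.7% G and C, with 1 CCAAT and 1 GGGCGG match. The Ebna1bp2 window had 56.3% with 2 GGGCGG matches, and the Cfap57 window 62.0% with 1. Ebna1bp2 and Cfap57 start 14 bases apart on opposite strands, and their windows share 113 bases. The start of D4Ertd617e lies 5.61 kb beyond that of Ebna1bp2. A match to these letters is a description and not a binding site.

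Values are log2 of the array's processed signal minus that array's 75th percentile, so 0 lies at the percentile; differences are the labelled knockout mean minus the other, so negative values mean lower in the labelled knockout tumours, and 1 on this scale is 2-fold. A name was tested if all 3 arrays of a genotype, or of both, measured one of its probes well above background, and its brightest such probe was taken. Between 54.2% and 59.4% of spots were well above background on each array, and the labelled wild-type arrays had a 75th percentile of 321.7 to 367.9 units and the labelled knockout arrays one of 277.1 to 299.6. All 6 arrays lay on 1 slide; their second position index was 1, 1 and 2 for the labelled wild-type and 2, 3 and 3 for the labelled knockout replicates, so it nearly follows genotype, and its part in the differences was not tested. The number of arrays limits the precision. The tissue label was checked with 6 keratinocyte markers, all well above background on all 6 arrays. Skeletal muscle markers averaged -0.18, 4.06 and 1.31 in the labelled wild-type tumours, here and below in the order of their replicate numbers 1 to 3. In the labelled knockout tumours they averaged -3.60, -4.07 and -3.74. Lower in 6 of 6, they included Ckm, Tnnc2 and Myh4, which were not above background on any labelled knockout array. Adipocyte markers averaged 0.40, 0.56 and -0.32 against -2.54, -2.57 and -2.40. Of their 5 tested markers 4 were lower, and Adipoq, Cfd, Plin1 and Retn were not above background on any labelled knockout array. Hair follicle markers averaged -0.20 to 4.33 in the labelled wild-type and -3.34 to -0.46 in the labelled knockout tumours. T cell markers averaged -1.18 to -0.45 and -0.79 to -0.26.

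Of the 156 names, 93 had a tested probe and 63 did not. Among the 63, 14 had a probe above background on at least 1 array and 49 on none. Of the 93, 86 were above background on every array of both genotypes, 6 passed through the labelled wild-type tumours only and 1, Olfr1342, through the labelled knockout tumours only. A name that passed through 1 genotype only had to differ, so the counts below do not stand for all members. The 76 member probes that were above background on no array still differed by a median of 0.32, at a floor that lay higher relative to the percentile on the labelled knockout arrays.

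Along the window most tested genes differed little between the genotypes. Among the 93, the labelled knockout tumours had the higher mean for 39 and the lower mean for 54. The median difference was -0.06, against 0.02 over all 19751 features and 0.02 over the 1158 features of the rest of chromosome 4. A difference within 0.25 of 0 was found for 57 members, or 61.3%, and for 55.7% of all features. Replicates of a genotype spread by a median SD of 0.23 among the members and 0.26 among all features.

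Differences of at least 2-fold were few. They were found for 3 members in the higher direction, or 3.23%, against 2.54% of all features, and for 4 in the lower direction, or 4.3%, against 3.39% of all features and 5.35% of the rest of chromosome 4. At limma's adjusted threshold of 0.05, 1 member was lower (D4Ertd617e; 0.111% of all features were) and 0 were higher (0.0506% of all features). At an unadjusted p under 0.05 with at least a 2-fold difference, 3 members were lower (D4Ertd617e, Cfap57 and Hpdl; background 2.38%) and 2 higher (Bend5 and Hyi; background 2.05%). These counts moved with single tumours: the lower one was 5 without labelled knockout replicate 1, and the higher one was 1 without labelled wild-type replicate 1 or labelled knockout replicate 2. The share of all features was not counted with these tumours left out.

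The 3 tumours of one genotype all lay below the 3 of the other for 9 members in the lower direction, where the background was 7.36%, and for 9 in the higher direction, where it was 12.1%. The lower members were D4Ertd617e, Cfap57, St3gal3, 2510003B16Rik, Mutyh, Pomgnt1, Ccdc163, Eri3 and Uqcrh. The higher members were Bend5, Hyi, Slc2a1, Pdzk1ip1, Ccdc17, Svbp, Ermap, Efcab14 and 1 unnamed noncoding probe. With both conditions, no overlap and 2-fold, 2 were lower (background 2.1%) and 2 higher (background 1.84%). With 1 tumour fewer the overlap condition is easier to meet. The share of all features that met it then was not counted, so the counts that follow have no background. The lower count was 18 without labelled wild-type replicate 1 or 2 and 26 without labelled knockout replicate 1. The higher count was 15 without labelled wild-type replicate 2 and 14 without labelled knockout replicate 2 or 3.

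**Figure D1:**
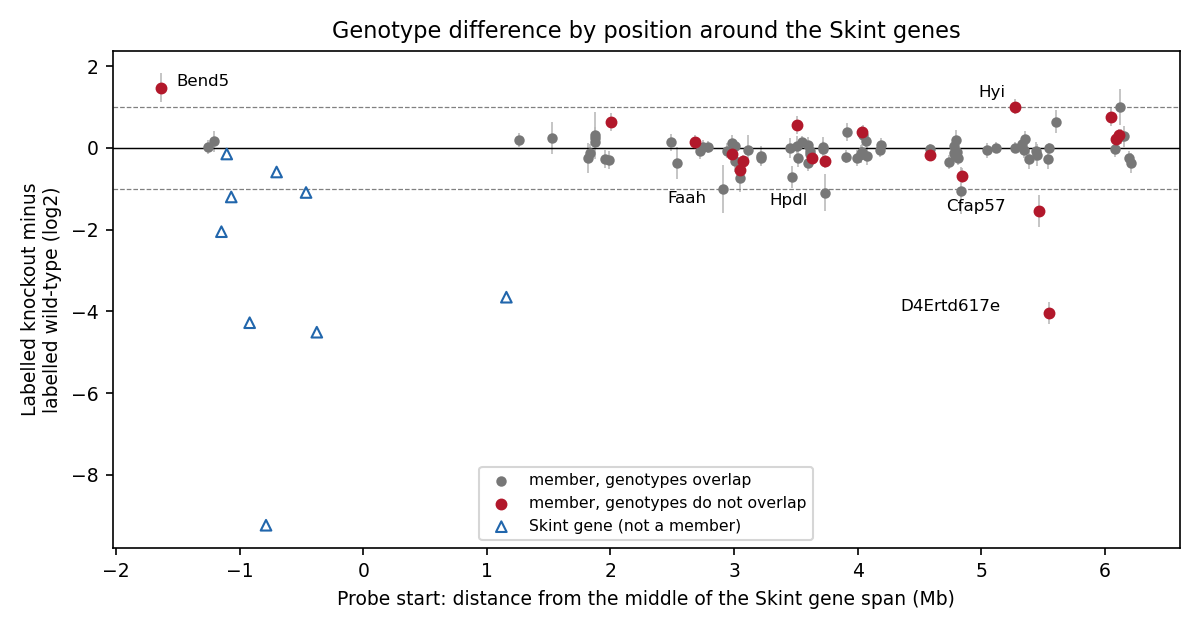
Each circle is 1 tested member and each triangle 1 Skint gene, placed by the start of its probe as distance in Mb from the middle of the Skint gene span on chromosome 4 (x axis); the y axis is the log2 difference between the genotypes, with the SE of the members as lines, and dashed lines mark 2-fold. Red circles are members whose genotypes did not overlap; D4Ertd617e at -4.04 stands below all other members, 4.39 Mb beyond the last Skint probe.

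Cut into stretches of 1 Mb, the window showed small medians throughout. The median difference was 0.16 in the first stretch, from 111 Mb, with 3 tested genes, and 0.18 from 114 Mb with 10. It was -0.10 from 115 Mb with 18 tested genes, -0.07 from 116 Mb with 27, -0.13 from 117 Mb with 13 and -0.001 from 118 Mb with 22. The span of the Skint genes starts within the first stretch and ends within that from 113 Mb. Apart from Skint genes, the stretches from 112 and 113 Mb held 1 name each and no tested member. The 9 tested of 11 Skint genes, which lie between 111601380 and 113917475, all had a lower mean in the labelled knockout tumours. Of these, Skint8, Skint4, Skint3, Skint2, Skint10 and Skint11 passed the filter through the labelled wild-type tumours only. Their lower means are therefore partly built in by the filter. Skint3 was at least 125-fold lower, with 0 of 3 labelled knockout arrays above background, and Skint7 differed by -0.15.

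D4Ertd617e, the long noncoding RNA gene whose probe is printed above, had the lowest difference of the members. Its probe read -2.05, -2.16 and -1.21 in the labelled wild-type tumours against -5.72, -5.83 and -6.00 in the labelled knockout tumours. The genotypes did not overlap, and the probe was above background on 3 of 3 labelled wild-type and 0 of 3 labelled knockout arrays. The knockout values are therefore a floor, and the transcript was at least 4.19-fold lower; the fitted difference of -4.04 (SE 0.27) rests on floor values. After normexp background correction the difference was -1.01 and did not pass the adjusted threshold. That correction adds an offset of 50 units to every signal, which shrinks the differences of dim probes. In tumour RNA, fewer cells that express a gene and less RNA per cell cannot be told apart. Muscle, adipocyte and hair follicle markers, given above, were also lower in the labelled knockout tumours, as were sebaceous gland markers, in 6 of 6, with a mean of 2.00 to 5.04 against 0.77 to 1.36. Their part in this difference was not tested.

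The probe of D4Ertd617e lies 4.39 Mb beyond the last Skint probe, with 78 tested members between them. Its nearest tested neighbours showed no difference of that size. Ebna1bp2, a nucleolar protein gene of ribosome assembly whose probe is 5.84 kb away, read 5.42, 4.88 and 5.34 in the labelled wild-type and 5.38, 4.62 and 4.82 in the labelled knockout tumours, a difference of -0.27 (SE 0.25) with overlap. Gm12853, 4.11 kb away on the other side and chosen after its values were seen, differed by -0.01 (SE 0.14), with values of -2.64 to -2.50 and -2.68 to -2.52.

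Cfap57, which encodes a protein of cilia and flagella, was the other member lower by at least 2-fold without overlap. Its probe (chr4:118227156-118227215, minus strand, mm9) read 1.91, 0.61 and 0.93 in the labelled wild-type tumours, a mean of 1.15 ± 0.67 (SD, n = 3). It read 0.07, -0.93 and -0.34, a mean of -0.40 ± 0.50 (SD, n = 3), in those labelled knockout. The difference was -1.55 (SE 0.40), and every labelled knockout tumour lay below every labelled wild-type tumour. This probe is 77.2 kb from that of D4Ertd617e, while the start of Cfap57 lies beside that of Ebna1bp2, which overlapped between the genotypes. A second Cfap57 probe was above background on no array.

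**Figure D2:**
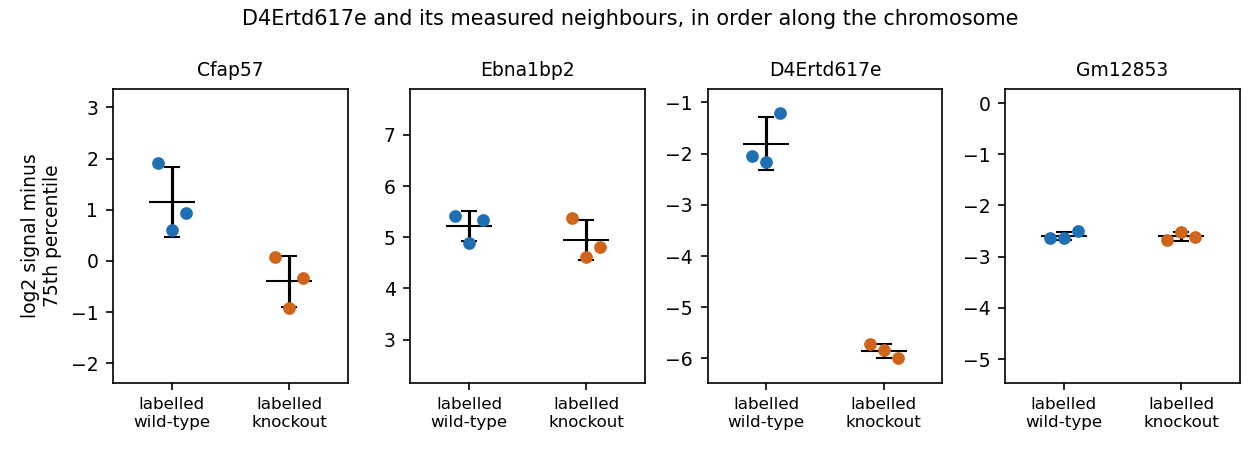
Log2 signal minus the 75th percentile (y axis, the same span in each panel) of D4Ertd617e and 3 tested neighbours in the 3 labelled wild-type and 3 labelled knockout tumours; points are tumours, bars the mean and SD. D4Ertd617e and Cfap57 separate the genotypes, and Ebna1bp2 and Gm12853 overlap.

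At the other end of the window, the genes flanking the Skint genes did not share the low values of the Skint genes. Bend5, which encodes a BEN-domain transcriptional repressor, was higher in the labelled knockout tumours. Its probe (chr4:111126746-111126805, plus strand, mm9), the first of the window, read -2.49, -1.16 and -2.15 in the labelled wild-type and -0.56, -0.66 and -0.16 in the labelled knockout tumours, a difference of 1.47 (SE 0.35). The genotypes did not overlap, with labelled wild-type replicate 2 the nearest to the labelled knockout tumours. A second Bend5 probe, which was above background on 2 of 3 labelled wild-type arrays, differed by 1.74.

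The brightest probes of the other neighbours overlapped between the genotypes. Spata6, a gene of sperm tail formation, differed by 0.02 (SE 0.18) at that probe, and its 3 other tested probes by 0.57 without overlap, by -0.13, and by -0.21 with 0 of 3 labelled knockout arrays above background. Slc5a9, a sodium-coupled sugar transporter gene, differed by 0.16 (SE 0.25), and its second probe by 0.64 without overlap. On the far side of the Skint genes, an unnamed noncoding probe starting at 114018842 differed by 0.20 (SE 0.18). Trabd2b, which encodes a membrane protease that inactivates Wnt ligands, read -1.68, -1.40 and -1.29 against -2.06, -1.08 and -0.49, a difference of 0.25 (SE 0.39). Its labelled knockout tumours spread on both sides of the labelled wild-type range. The forkhead factor gene Foxd2 differed by -0.24 (SE 0.36), with 2 of 3 labelled knockout arrays above background.

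The first member probe inside the window was that of Bend5, with a difference of 1.47. The last was a Ccdc30 probe at 118996447, above background on no array, with a difference of 0.33. The nearest probes outside were one of Agbl4 at 110335054 (0.31) and a second of Ccdc30 at 119025710 (0.67), and neither was above background on any array.

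The Tal1 and Stil locus held 7 listed genes, of which 6 were tested, 3 higher and 3 lower, with a median of -0.05. Pdzk1ip1, which encodes a small membrane protein of epithelia, read 6.01, 6.01 and 5.48 in the labelled wild-type and 6.22, 6.76 and 6.45 in the labelled knockout tumours. Every labelled knockout tumour lay above every labelled wild-type tumour at this probe, with a difference of 0.64 (SE 0.22). The second Pdzk1ip1 probe differed by 0.84, with overlap. Cmpk1, which phosphorylates UMP and CMP to their diphosphates, differed by 0.15 (SE 0.15). Tal1, a transcription factor of blood and vessels, differed by -0.29 (SE 0.23); it was named after its values were seen.

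Of the Cyp4 genes, which hydroxylate fatty acids, most were not detected. Of 11 names that start with Cyp4, 2 were tested, and 12 of 15 probes were above background on no array. The 11 include Cyp4b1-ps2, a pseudogene, and Cyp4x1os, an opposite-strand transcript. Cyp4b1 differed by -0.37 (SE 0.39) and Cyp4a31 by 0.13 (SE 0.21), both with overlap. The olfactory receptors gave the same picture of few detected probes: 1 of 12 names was tested, and 12 of 13 probes were above background on no array.

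Among genes of metabolism and redox, 17 of 18 listed genes had a probe in the window and all of these were tested; 6 were higher and 11 lower, with a median of -0.07. The members chosen for their high levels differed little. Elovl1, which lengthens very long fatty acids, differed by -0.06 (SE 0.18), and the peroxiredoxin gene Prdx1 by -0.07 (SE 0.18). Uqcrh, a subunit of respiratory complex III, read 7.36, 7.26 and 7.34 against 7.21, 7.25 and 7.09. Its genotypes did not overlap, yet the gap between the nearest tumours was small and the difference was -0.14 (SE 0.14).

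Hyi, described with its probes below, had the largest difference in the higher direction in this list. Slc2a1, St3gal3, Faah and Hpdl were picked out after their values were seen. Slc2a1, the glucose transporter GLUT1, read 5.75, 5.71 and 6.22 in the labelled wild-type and 6.39, 6.82 and 6.74 in the labelled knockout tumours, a difference of 0.76 (SE 0.21). St3gal3, a sialyltransferase, read 0.28, 0.68 and 0.83 against -0.08, -0.12 and -0.03, a difference of -0.68 (SE 0.18). Neither gene overlapped between the genotypes.

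Faah, which degrades fatty-acid amides such as anandamide, read -0.92, 1.26 and -0.85 in the labelled wild-type and -1.53, -1.13 and -0.85 in the labelled knockout tumours. The difference was -0.997 (SE 0.59); labelled wild-type replicate 2 stood apart and the other tumours overlapped. That tumour also had the highest mean of the 6 for sebaceous gland (5.04), hair follicle (4.33), muscle (4.06) and adipocyte markers (0.56). In the other labelled wild-type tumours these means were 2.63 and 2.00, 2.55 and -0.20, -0.18 and 1.31, and 0.40 and -0.32. Their part in the Faah value was not tested. Hpdl, a dioxygenase-like mitochondrial protein gene, read -0.54, -0.16 and -1.21 against -0.80, -2.10 and -2.30, a difference of -1.10 (SE 0.45), and labelled knockout replicate 1 lay within the labelled wild-type range.

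**Figure D3:**
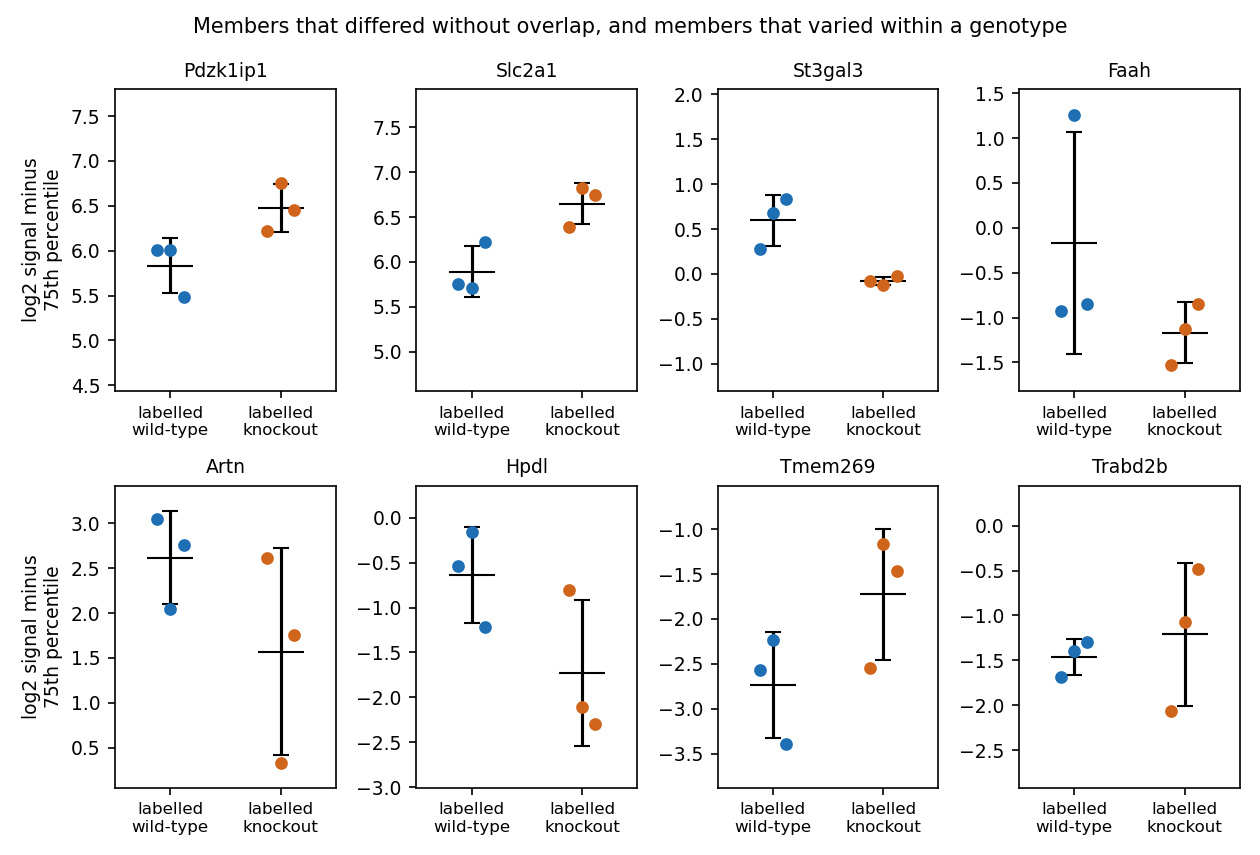
Log2 signal minus the 75th percentile (y axis, the same span in each panel) of 8 members in the 6 tumours; points are tumours, bars the mean and SD of 3. Pdzk1ip1, Slc2a1 and St3gal3 separate the genotypes, while Faah, Artn, Hpdl, Tmem269 and Trabd2b overlap, with at least 1 tumour apart from the rest of its genotype.

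The 6 listed genes of DNA and cell division were all tested. Plk3, a stress-response kinase, was higher by 0.32 (SE 0.23) and the other 5 were lower; the median was -0.26. Mutyh, a glycosylase of base excision repair, differed by -0.33 (SE 0.17) without overlap, and Nasp, a histone chaperone, by -0.25 (SE 0.21), although other Nasp probes differed by -0.06, 0.36 and 0.63, the last 2 above background on some arrays only. Stil, which is needed to copy centrioles, Rad54l, of homologous recombination, and Kif2c, a microtubule-depolymerising kinesin, differed by -0.27 (SE 0.21), -0.32 (SE 0.26) and -0.19 (SE 0.22), and were named after their values were seen. In all 6 genes labelled knockout replicate 1 was the highest of the labelled knockout tumours. Proliferation markers from outside the window, lower in 6 of 6, averaged 2.60 in that tumour, 1.76 and 1.89 in the other labelled knockout tumours, and 2.30 to 2.51 in the labelled wild-type tumours. Their part in these differences was not tested.

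Signalling genes were split, with 5 higher and 6 lower among 11 tested and a median of -0.02. Ptprf, a receptor tyrosine phosphatase of epithelia, differed by 0.01 (SE 0.13). Artn, the GDNF-family ligand artemin, was named after its values were seen. It read 3.05, 2.04 and 2.76 in the labelled wild-type and 2.62, 0.33 and 1.76 in the labelled knockout tumours, a difference of -1.05 (SE 0.58). Replicate 2 was the lowest tumour of each genotype, and labelled knockout replicate 1 lay within the labelled wild-type range. Tie1, a receptor of vessel endothelium, differed by -0.26 (SE 0.25) and was likewise chosen afterwards; endothelial markers averaged -0.82 to -0.02 in the labelled wild-type and -1.12 to -0.54 in the labelled knockout tumours.

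Genes of RNA handling and translation and of transcription and chromatin also differed little. Of the 11 RNA and translation genes, all tested, 4 were higher and 7 lower, with a median of -0.11. Ybx1, which encodes an RNA-binding cold-shock protein, differed by -0.24 (SE 0.17). Of 12 transcription and chromatin genes with a probe in the window 9 were tested, 4 higher and 5 lower, with a median of -0.03. The ubiquitin ligase gene Rnf220 differed by 0.08 (SE 0.16) and the histone demethylase gene Kdm4a by -0.06 (SE 0.18). Bend5, given above, was the 1 gene of these lists with a 2-fold difference.

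A hand-written list put 10 genes under cilia and tubulin, which is no evidence of such a role for each. Of these, 6 were tested, 4 higher and 2 lower, with a median of 0.09. Cfap57 was the 1 member with a 2-fold difference. Svbp, the partner of the tubulin-trimming vasohibins, differed by 0.31 (SE 0.16) and Efcab14 by 0.15 (SE 0.16), both without overlap. The gaps were small. The highest labelled wild-type and lowest labelled knockout tumours read 3.425 and 3.428 for Svbp, and 3.27 and 3.29 for Efcab14. Of 6 surface and membrane genes 4 were tested, 1 higher and 3 lower, with a median of -0.11. Ermap, an immunoglobulin-superfamily gene of the erythroid membrane, differed by 0.22 (SE 0.14) without overlap; Tmem125 and Tmem53 differed by -0.18 (SE 0.27) and -0.05 (SE 0.16). Tmem269 was picked out after its values were seen: it read -2.57, -2.24 and -3.40 against -2.55, -1.17 and -1.47, a difference of 1.01 (SE 0.44), and labelled knockout replicate 1 lay within the labelled wild-type range. In each of the 9 lists of genes described here, 0 members passed the adjusted threshold.

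**Figure D4:**
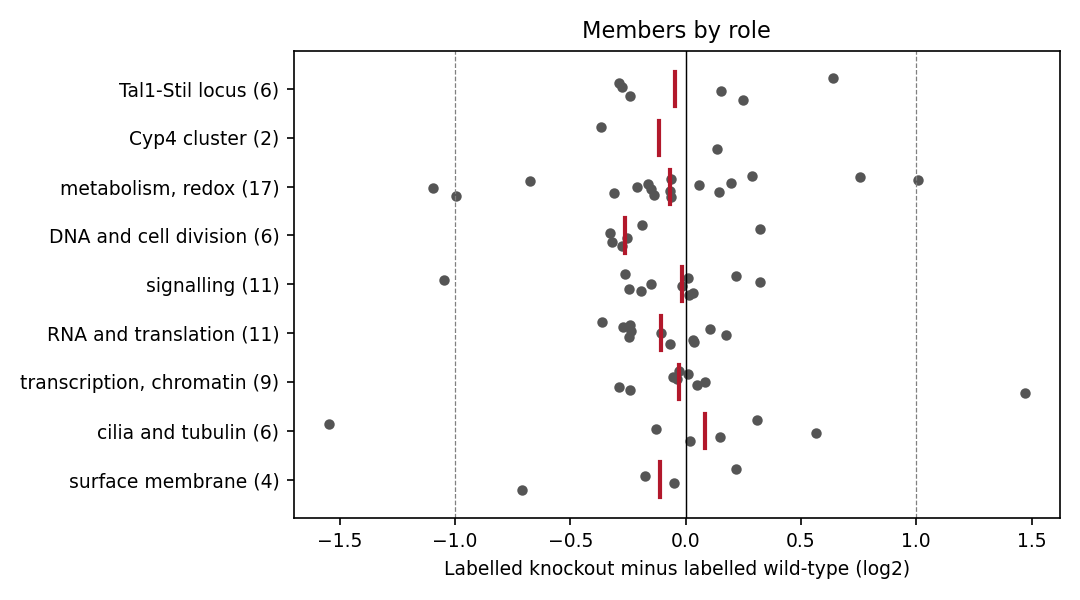
Log2 difference between the genotypes (x axis, positive where the labelled knockout tumours were higher) of each tested gene of the 9 role lists (rows, with the number of tested genes); each point is 1 gene, red bars are list medians and dashed lines mark 2-fold. Medians lie between -0.26 and 0.09, and Cfap57, Hpdl, Artn, Hyi and Bend5 lie beyond 2-fold.

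Probes of the same name mostly moved together, and Hyi did not. Of 32 names with at least 2 tested probes, 25 had all probes on the same side of 0 and 7 did not; the median spread between probes of a name was 0.16 and the largest was 1.101, for Hyi. Hyi encodes hydroxypyruvate isomerase. Its brightest probe (chr4:118035290-118035349, plus strand, mm9) read 2.54, 2.45 and 2.76 in the labelled wild-type and 3.56, 3.85 and 3.36 in the labelled knockout tumours, a difference of 1.01 (SE 0.19) without overlap.

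The other Hyi probe, at 118033424, read -0.52, -0.16 and 0.00 against -0.33, -0.23 and -0.40, a difference of -0.09 with overlap. Both probes were above background on all 6 arrays. What sets the Hyi probes apart was not tested.

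**Figure D5:**
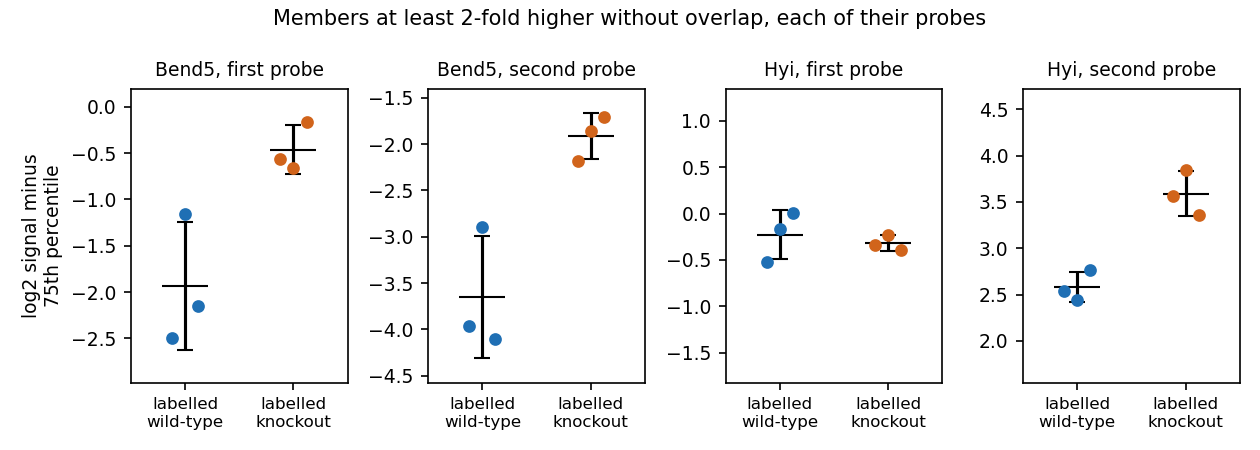
Log2 signal minus the 75th percentile (y axis, the same span in each panel) of each probe of Bend5 and Hyi in the 6 tumours, in order along the chromosome; points are tumours, bars the mean and SD of 3. Both Bend5 probes separate the genotypes, as does the second Hyi probe, while the first Hyi probe overlaps.

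Tested and undetected members had different base composition at their gene starts, a property that the choice of the window did not use. RefSeq (GRCm38.p6) promoters of 300 bases were found for 72 of the 93 tested names, with 92 promoters, and for 30 of the 49 names with no probe above background on any array, with 35. The median share of G and C was 59.3% in the tested and 50.7% in the undetected names, against 52.7% over all 32851 promoters in the table. The median ratio of observed to expected CpG was 0.691, 0.188 and 0.384 in the same order. The letters GGGCGG, on either strand, were found in 67.4% of the tested promoters, 28.6% of the undetected and 35.7% of all; TATAAA was found in 5.43%, 17.1% and 13.6%. CCAAT was found in 40.2%, 37.1% and 37.4%. The undetected names include 10 olfactory receptor genes with 10 promoters, of which 0 held GGGCGG, and their median CpG ratio was 0.124. No test was made of these shares, and neighbouring genes with a shared start are counted in both. Tested and undetected genes outside the window were not compared in this way, so the contrast is not shown to be particular to the region.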

How the data were processed

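RNA of 6 skin tumours was measured on 1-colour Agilent arrays, 3 per genotype as labelled. The deposited values are intensity, linear in brightness, per the file headers; the authors' processed signals are background-subtracted and detrended, with surrogate values for dim spots. The submitters' processing notes name Agilent Feature Extraction, version 10.7.1.1. The deposited series value table holds log2 values; its columns correlated with the arrays' own signals at r = 0.99945 to 0.99997, each with a median of 4.969, without centring of genes, from a step not given in the sources used here. Probe coordinates are mm9, per the file headers.

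The processed signal was put on the log2 scale and each array's own 75th percentile of non-control probes was subtracted, without outlier-flagged spots (68 to 184 per array); 0 spots were saturated. Spots of a probe were averaged. Of 56605 probes 29725 passed the filter, all 3 arrays of a genotype well above background. The brightest of them stood for its gene, giving 19751 features. Names came from RefSeq (GRCm38.p6, names only) for 32994 probes by accession, 10224 by symbol and 520 by synonym; 12867 kept the array's name.

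Genotypes were compared over all features with limma 3.58.1 (lmFit, eBayes; R 4.3.3, package data.table in version 1.17.8). Tests were two-sided and adjusted by the Benjamini-Hochberg method at 0.05; the fit was tested on simulated data and recovered 19 of 100 features changed by 1 and 65 of 100 changed by 2 on the log2 scale, with 4 false calls. For a probe at background in a genotype, the fold is a bound: the bright genotype's mean against the dim genotype's mean of, per array, its own signal or the lowest one above background, whichever is higher.

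The members and the lists were chosen with earlier results of these data known. Genes named are D4Ertd617e, members with a 2-fold difference and no overlap, the 3 tested features nearest to the Skint genes on each side, the 3 members of each list with the highest mean, and members whose probes disagree; others are said to have been chosen after their values were seen. The results of 3 genes that this rule selects are not reported here. The alternatives tried were normexp (offset 50), quantile normalization, median centring, other filters, the mean over a gene's probes, trend and robust settings, array weights, the value table, replicate and slide-position blocks, and each tumour left out.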

Additional observations from a re-analysis of the deposited data

How the results depend on the processing

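The median difference of the members was -0.06; with no filter on dim probes it was 0.082, over 155 features, where the median of all features was 0.19. It lay between -0.09 and -0.02 with each tumour left out. The count past the adjusted threshold, 1, was 0 after normexp, 0 with probes above background on all 6 arrays, which leaves out D4Ertd617e, and 0 with the replicate block; it was 1 to 2 with each tumour left out, adding Bend5 without labelled wild-type replicate 2. The unadjusted 2-fold count of lower members was 2 to 5 with each tumour left out. That of higher members was 1 after normexp, median centring, averaging of a gene's probes or a block for the first position index on the slide (2, 1 and 2 for the labelled wild-type and 1, 1 and 2 for the labelled knockout replicates), not the second, which nearly follows genotype, and 1 to 3 with each tumour left out. The non-overlapping counts were 11 to 26 lower and 11 to 15 higher with each tumour left out, and 42 higher with no filter, most of them dim probes. Other alternatives kept these counts within 1.5 times. Shares of all features were not counted under the alternatives, so the counts there have no background.

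Replicate numbers were not taken to pair the tumours. Deviations of same-numbered tumours from their own genotype's mean correlated at r = 0.063, 0.256 and 0.144 over all features. Those of tumours with different numbers correlated at r = -0.198 to 0.097. Of 542 differences of named genes under the alternatives 538 moved by less than the replicate SD. In 34 the sign changed, for 15 genes whose difference was at most 0.25 in size; D4Ertd617e, Cfap57, Bend5 and Hyi kept their sign. The 4 that moved more were D4Ertd617e (-1.01) and Ptprf (-0.05) after normexp, and Hyi (0.46) and Nasp (0.10) with their probes averaged. With each tumour left out, D4Ertd617e ranged from -4.22 to -3.74, Cfap57 from -1.82 to -1.17 and Bend5 from 1.19 to 1.86. Where every array of a genotype read a probe at background, signal over background limits the difference to a bound.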

Other observations

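A few members were above background in 1 tumour of a genotype only. Tspan1, which encodes a tetraspanin of epithelia, was above background in labelled wild-type replicate 1 (-2.46) and labelled knockout replicate 3 (-1.61) and read -4.67 and -6.14 in the other labelled wild-type and -5.89 and -5.96 in the other labelled knockout tumours. A probe of Gm12863 was above background in labelled knockout replicate 3 alone (-3.06), with -6.70 to -5.08 in the labelled wild-type tumours. Both were chosen after their values were seen.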
